A study of Mus musculus with 6 samples.

Results

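The genes described here are 10 mouse genes listed as early pachytene onset genes: Mybl1, Tcfl5, Ybx2, Ldhc, Pgk2, Hspa2, Ccna1, Pou5f2, Clgn and Spata16. Pachytene is the long stage of meiotic prophase I in which paired chromosomes are fully joined. Whether all 10 are switched on at the same time was not tested. The list names these genes as a gauge of how far the first wave of spermatogenesis had gone. Its rule uses no value from these libraries, but earlier results of these data were known when the genes were chosen. All 10 were found by gene identifier among the 49671 gene rows, and 7 of them passed the filter on low counts that left 18040 genes for testing. RNA-seq was run on whole testes taken from juvenile mice at 12 days post-partum, 3 of them Ankrd31-/- (knockout) and 3 Ankrd31+/+ (wild type), all on the C57BL/6J background. The labels give no treatment and do not say which part of the gene was deleted, and the replicates of each genotype are numbered 1 to 3. Between 21014060 and 22706296 counts were assigned to genes per library.

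In the mouse the first germ cells enter meiosis together after birth, so that a juvenile testis holds germ cells only up to the stage this first wave has reached. At the start of pachytene spermatocytes turn on a large transcription programme. It is driven by A-MYB, the product of Mybl1, and it supplies messages, chaperones and enzymes used later in meiosis and in spermatids. Several of these genes are germ cell copies of a gene that other cells use, such as Ldhc beside Ldha and Ldhb, or Pgk2 beside Pgk1. Ankrd31 encodes an ankyrin-repeat partner of the proteins that place the DNA breaks of meiosis.

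The 250 bases before the transcription start were read from RefSeq (GRCm38.p6) for 8 of the 10 genes. Mybl1 and Clgn have no entry in the table that was used. The promoters of Ldhc and Tcfl5 are shown because they hold the MYB core, the site of the A-MYB class of factors. That of Spata16 is shown because it holds an E-box, the class of site bound by basic helix-loop-helix factors, to which the product of Tcfl5 belongs. The letters searched on both strands were TAACNG and CAACNG (the MYB core and a looser form of it, which can overlap each other), TGACGT (the core of a cyclic AMP response element) and CACGTG (an E-box). Every match is in capitals, and the sequences run 5′ to 3′ on the strand of the gene.
Ldhc, chr7:46861013-46861262, plus strand: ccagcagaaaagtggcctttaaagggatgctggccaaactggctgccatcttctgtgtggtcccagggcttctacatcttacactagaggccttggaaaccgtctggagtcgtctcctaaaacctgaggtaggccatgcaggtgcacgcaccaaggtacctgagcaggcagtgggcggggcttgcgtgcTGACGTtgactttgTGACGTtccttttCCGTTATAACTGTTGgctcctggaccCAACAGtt
Tcfl5, chr2:180642692-180642941, minus strand: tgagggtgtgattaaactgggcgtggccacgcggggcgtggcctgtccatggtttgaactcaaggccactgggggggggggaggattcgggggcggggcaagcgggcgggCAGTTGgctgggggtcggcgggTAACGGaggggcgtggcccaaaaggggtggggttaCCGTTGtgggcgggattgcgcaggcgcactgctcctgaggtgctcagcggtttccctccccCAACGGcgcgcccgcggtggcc
Spata16, chr3:26637381-26637630, plus strand: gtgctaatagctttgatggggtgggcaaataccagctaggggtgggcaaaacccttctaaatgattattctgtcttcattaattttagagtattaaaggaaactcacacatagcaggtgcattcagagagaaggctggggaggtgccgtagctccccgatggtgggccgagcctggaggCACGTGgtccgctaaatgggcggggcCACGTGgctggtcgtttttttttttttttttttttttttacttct

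TAACNG stood in 3 of the 8 promoters, those of Tcfl5, Ldhc and Hspa2, against 19.8% of 32851 RefSeq mouse promoters of the same length. CAACNG stood in 5 of 8, against 29.3% of all promoters. TGACGT was found in Ldhc, against 6.47% of all promoters, and CACGTG in Spata16, against 6.02%. In Ldhc the MYB matches start 34, 28, 25 and 8 bases before the RefSeq start, and some overlap. The RefSeq start lay inside the gene span of the counts by 11 bases in Spata16, 17 in Tcfl5, 60 in Ldhc, 103 in Ybx2, 194 in Hspa2 and 446 in Ccna1, and at the edge of the span in Pgk2 and Pou5f2. The windows of the first 6 therefore hold part of the counted gene. All MYB matches of Ldhc lie in that part, as does its TGACGT match at 47 bases, and the match at 61 bases spans the edge. The TAACNG match of Hspa2, at 175 bases, is also inside the counted gene, and that of Tcfl5, at 118 bases, is before it. That of Hspa2, which is mostly inside it and is not printed, is 1 of the 3 with TAACNG, and that of Ccna1, which is wholly inside it, is 1 of the 5 with CAACNG. A match is a description of these letters and not a measured binding site.

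Ankrd31 itself, the targeted gene, had 40.84, 33.15 and 38.02 CPM (counts relative to the library total, which was scaled by edgeR's TMM factor) in knockout replicates 1, 2 and 3, against 84.94, 52.29 and 63.25 CPM in wild-type replicates 1, 2 and 3. The groups did not overlap. Its log2 fold change was -0.84 ± 0.17 (SE), with an adjusted p of 0.999992 in edgeR's quasi-likelihood test, and -0.82 ± 0.07 with an adjusted p of 0.00505 when the replicate number was a block. With the block and without pair 3 it was -0.86 with an adjusted p of 0.316 in edgeR, and DESeq2 without a block gave an adjusted p of 0.00163. The counts cover the whole gene, so they check the labels in part.

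Libraries of the same replicate number deviated together in both genotypes, and this bears on everything that follows. Wild-type replicate 1 was the highest of the 6 libraries for 6 of the 7 tested genes, against 16.5% of all tested genes, and knockout replicate 1 was the highest knockout library for the same 6, against 34.3% of all tested genes for knockout replicate 1 and 19.5% for number 1 highest in both genotypes. Values are therefore given with and without wild-type replicate 1. Leaving it out had to raise the log2 fold changes of those 6 genes, and it kept knockout replicate 1, which was also high. Crisp1, which encodes a secreted protein of the epididymis, had 29.7 CPM in wild-type replicate 3, against 0 to 2.88 CPM in the knockout libraries and 0 to 0.132 CPM in the other wild-type libraries. The 8 epididymis and rete genes summed to 129.4 to 148.4 CPM in the knockout libraries and 141.3, 154.0 and 186.2 CPM in wild-type replicates 1, 2 and 3, mostly from Wfdc10. Their part in the results was not tested.

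None of the 7 tested genes passed the test between genotypes. For 6 of the 7 both the highest and the lowest of the 6 libraries were wild type. The genotype background was 0% of 18040 genes called by edgeR at an adjusted p of 0.05, with 374 genes at an unadjusted p under 0.05, and none of the 7 was among those. With the replicate number as a block, 0.0443% of genes were called (0.0333% higher and 0.0111% lower in knockout) and again none of the 7. DESeq2 called 2 genes and limma voom 0 over the whole table, with none of the 7 under either, and none of the 7 had an unadjusted p under 0.05 in any of these fits. A test that was not passed does not show that the levels were equal. The standard errors give the size of difference that could be seen, and those below are of the fit without the block. With the block the log2 fold changes were 0.171 ± 0.119 (SE) for Mybl1, -0.065 ± 0.06 for Tcfl5, -0.085 ± 0.26 for Ybx2 and -0.999 ± 0.686 for Ldhc. They were 0.003 ± 0.11 for Hspa2, -0.158 ± 0.311 for Ccna1 and -0.195 ± 0.202 for Clgn.

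**Figure D1:**
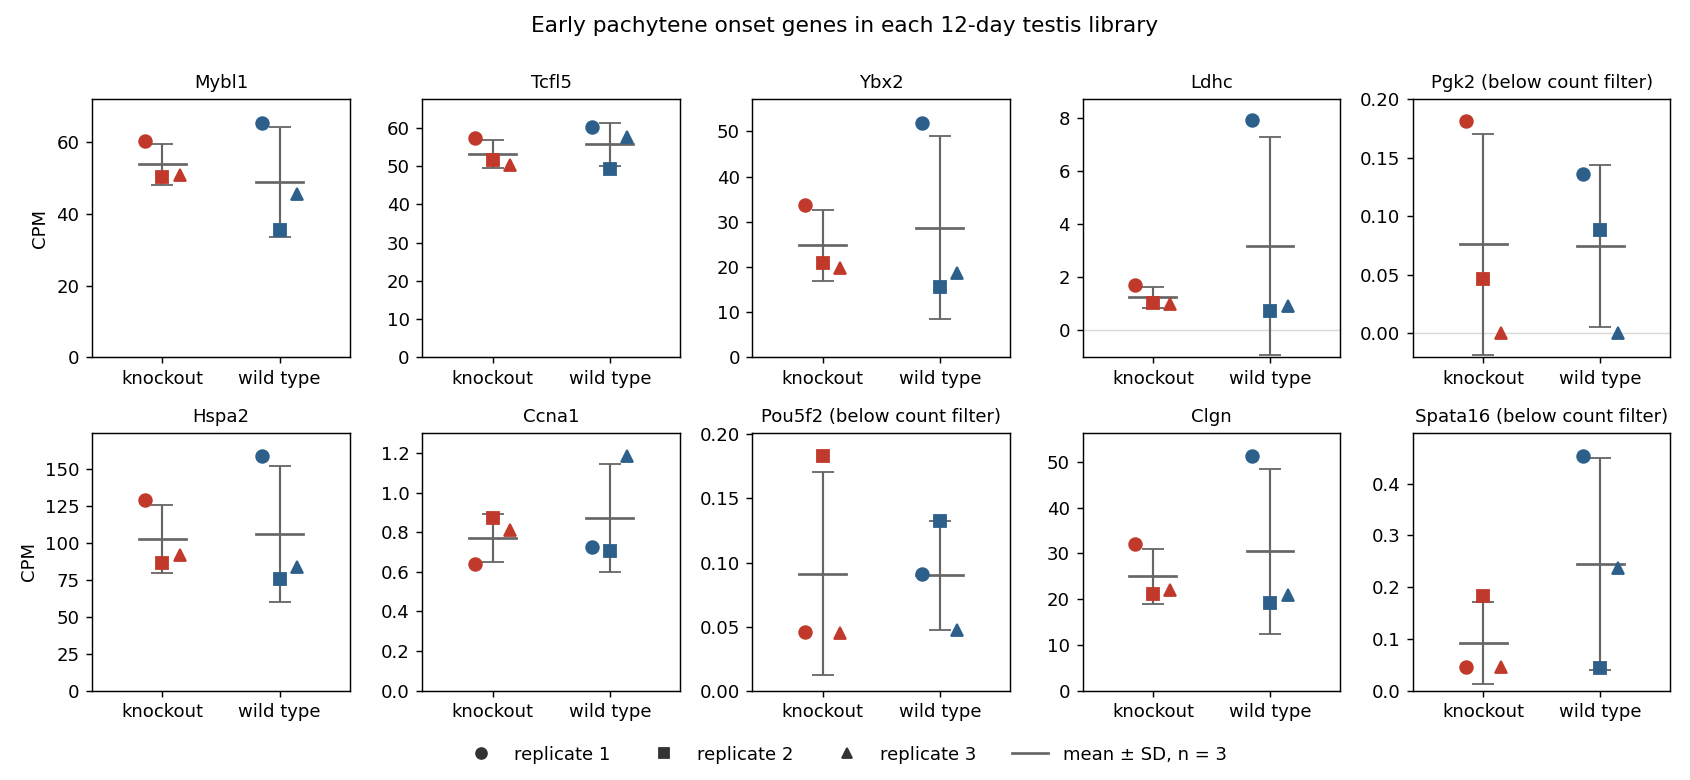
Level of each of the 10 genes in CPM by library, knockout left and wild type right, with a marker shape for each replicate number and bars for the mean ± SD of 3 libraries; the titles mark the 3 genes below the count filter. Replicate 1 of wild type is the top point for Mybl1, Tcfl5, Ybx2, Ldhc, Hspa2 and Clgn, and the 3 knockout libraries of those genes other than Tcfl5 lie between wild-type replicates 1 and 3.

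The regulators come first. Mybl1 (ENSMUSG00000025912, mm10 chromosome 1, 9667415 to 9700209, minus strand) encodes A-MYB, the transcription factor that turns on pachytene genes and the precursors of pachytene piRNAs. It had 60.3, 50.3 and 50.9 CPM in knockout replicates 1, 2 and 3, against 65.5, 35.4 and 45.7 CPM in wild-type replicates 1, 2 and 3. The knockout libraries all lay inside the wild-type range. The means were 53.8 ± 5.63 CPM in knockout and 48.9 ± 15.3 CPM in wild type (SD, n = 3 each). The log2 fold change was 0.14 ± 0.22 (SE), and 0.41 ± 0.12 without wild-type replicate 1 (edgeR unadjusted p = 0.00736, adjusted p = 0.425). Leaving out the highest wild-type library had to raise the value, so this p-value is not a fair test. With the block and without pair 1 the log2 fold change was 0.33 ± 0.09. Without the block and without wild-type replicate 2 it was -0.05 ± 0.15.

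Tcfl5 (ENSMUSG00000038932, chromosome 2, 180621956 to 180642708, minus strand) encodes a basic helix-loop-helix factor of spermatocytes. It had the narrowest range of the 7 tested genes, with 57.3, 51.6 and 50.4 CPM in the knockout libraries and 60.2, 49.3 and 57.6 CPM in the wild-type libraries. The means were 53.1 ± 3.69 CPM in knockout and 55.7 ± 5.70 CPM in wild type, and the log2 fold change was -0.07 ± 0.09. Col9a3 lies on the opposite strand and overlaps Tcfl5 with 169 to 251 counts per library, and the strand setting of the counting is not given in the sources used here, so the Tcfl5 level is uncertain to that extent.

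Pou5f2 (ENSMUSG00000093668, chromosome 13, 78024902 to 78026295, plus strand), a POU-domain transcription factor of the testis, was at the limit of detection. It had 1, 4 and 1 counts in the knockout libraries and 2, 3 and 1 counts in the wild-type libraries. A limit of 3 counts corresponds to 0.132 to 0.142 CPM per library, so no direction can be read at this depth. The gene lies inside the span of Fam172a on the same strand, which has 1199 to 1309 counts per library, so even these reads are uncertain.

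Among the genes of messenger RNA and protein handling, Hspa2 had the highest level per length. Hspa2 (ENSMUSG00000059970, chromosome 12, 76404176 to 76406934, plus strand) encodes a heat shock chaperone needed for spermatocytes to complete the first meiotic division. It had 128.5, 86.5 and 91.9 CPM in knockout replicates 1, 2 and 3, against 158.4, 75.1 and 83.7 CPM in wild-type replicates 1, 2 and 3. Within each genotype replicate 1 was the highest, and the knockout libraries lay inside the wild-type range. The means were 102.3 ± 22.9 CPM in knockout and 105.7 ± 45.8 CPM in wild type. The log2 fold change was -0.05 ± 0.35, and it changed sign to 0.37 ± 0.18 without wild-type replicate 1.

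Ybx2 (ENSMUSG00000018554, chromosome 11, 69935796 to 69941605, plus strand) encodes MSY2, a Y-box protein that binds and stores messages in germ cells. Its level was 33.7, 20.8 and 19.7 CPM in the knockout libraries, against 51.9, 15.5 and 18.6 CPM in the wild-type libraries. Wild-type replicate 1 stood at 3.05 times the mean of the other wild-type libraries, and knockout replicate 1 at 1.66 times the mean of the other knockout libraries. The means were 24.8 ± 7.79 CPM in knockout and 28.7 ± 20.2 CPM in wild type, with a log2 fold change of -0.21 ± 0.57, and 0.54 ± 0.26 without wild-type replicate 1.

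Clgn (ENSMUSG00000002190, chromosome 8, 83389867 to 83428552, plus strand) encodes calmegin, a chaperone of the endoplasmic reticulum that folds sperm surface proteins. It had 32.0, 21.1 and 21.9 CPM in the knockout libraries, against 51.3, 19.2 and 20.9 CPM in the wild-type libraries. Again the wild-type libraries spanned the knockout ones. The means were 25.0 ± 6.07 CPM in knockout and 30.5 ± 18.02 CPM in wild type, with a log2 fold change of -0.29 ± 0.46, and 0.32 ± 0.18 without wild-type replicate 1.

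The glycolytic enzymes of germ cells were near the bottom of the range at this age. Ldhc (ENSMUSG00000030851, chromosome 7, 46861203 to 46878142, plus strand) encodes the lactate dehydrogenase subunit found in spermatocytes and sperm. It had 37, 22 and 22 counts in knockout replicates 1, 2 and 3, against 175, 16 and 19 counts in wild-type replicates 1, 2 and 3, which is 7.92 CPM in wild-type replicate 1 and 0.704 to 1.685 CPM in every other library. The means were 1.23 ± 0.396 CPM in knockout and 3.18 ± 4.11 CPM in wild type, so the SD of the wild type exceeded its mean. The log2 fold change was -1.37 ± 1.06, and 0.62 ± 0.35 without wild-type replicate 1, so 1 library decided its sign. Pgk2 (ENSMUSG00000031233, chromosome 17, 40207018 to 40208609, minus strand), an intronless copy of the X-linked glycolytic gene Pgk1, had 4, 1 and 0 counts in the knockout libraries and 3, 2 and 0 counts in the wild-type libraries. Reads shared with Pgk1 or its other copies may have been lost, and nothing can be read from these counts.

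Ccna1 (ENSMUSG00000027793, chromosome 3, 55045469 to 55055501, minus strand) encodes the germ cell cyclin A1, which spermatocytes need at the end of prophase. It was low in all libraries. It had 14, 19 and 18 counts in the knockout libraries and 16, 16 and 25 counts in the wild-type libraries, with wild-type replicate 3 the highest. The means were 0.773 ± 0.121 CPM in knockout and 0.871 ± 0.271 CPM in wild type, with a log2 fold change of -0.17 ± 0.31. Spata16 (ENSMUSG00000039335, chromosome 3, 26637620 to 26983212, plus strand), whose human gene is mutated in men with round-headed sperm, had 1, 4 and 1 counts in the knockout libraries and 10, 1 and 5 counts in the wild-type libraries, and was not tested. Without the count filter its log2 fold change was -1.36 ± 0.79 (edgeR adjusted p = 0.979).

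Of the 7 tested genes 1 had a positive log2 fold change in the fit without the block, Mybl1. The median was -0.17, against -0.01 and 47.6% positive over all 18040 genes. Without wild-type replicate 1 the median was 0.37 and 5 of the 7 were positive, with Tcfl5 at -0.01 and Ccna1 at -0.28. That library was the highest for 6 of the 7, so leaving it out had to raise their values. In the same way, leaving out wild-type replicate 2, the lowest for 6 of the 7, gave a median of -0.30. Positive values numbered 0 when wild-type replicate 2 was left out, and 2 when knockout replicate 2, knockout replicate 3 or wild-type replicate 3 was. The adjusted p of the 7 genes in edgeR was 0.425 to 0.992 without wild-type replicate 1. In whole testes, fewer cells of a type and less RNA per cell cannot be told apart, so a level here joins the share of spermatocytes with their expression.

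Pairs of the same number gave different directions (log2 ratios of CPM with a prior count of 2). In pair 1 the knockout library was below the wild-type library for all 7 genes, with a median log2 ratio of -0.30, where 49.5% of all tested genes were higher in the knockout library. In pair 2 the knockout library was higher for all 7, with a median of 0.27 (49.6% of all tested genes), and in pair 3 it was higher for 5 of 7, with a median of 0.09 (49.4%). Ldhc spanned the widest range, with log2 ratios of -2.17, 0.47 and 0.13 in pairs 1, 2 and 3. Tcfl5 spanned -0.07, 0.07 and -0.19.

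**Figure D2:**
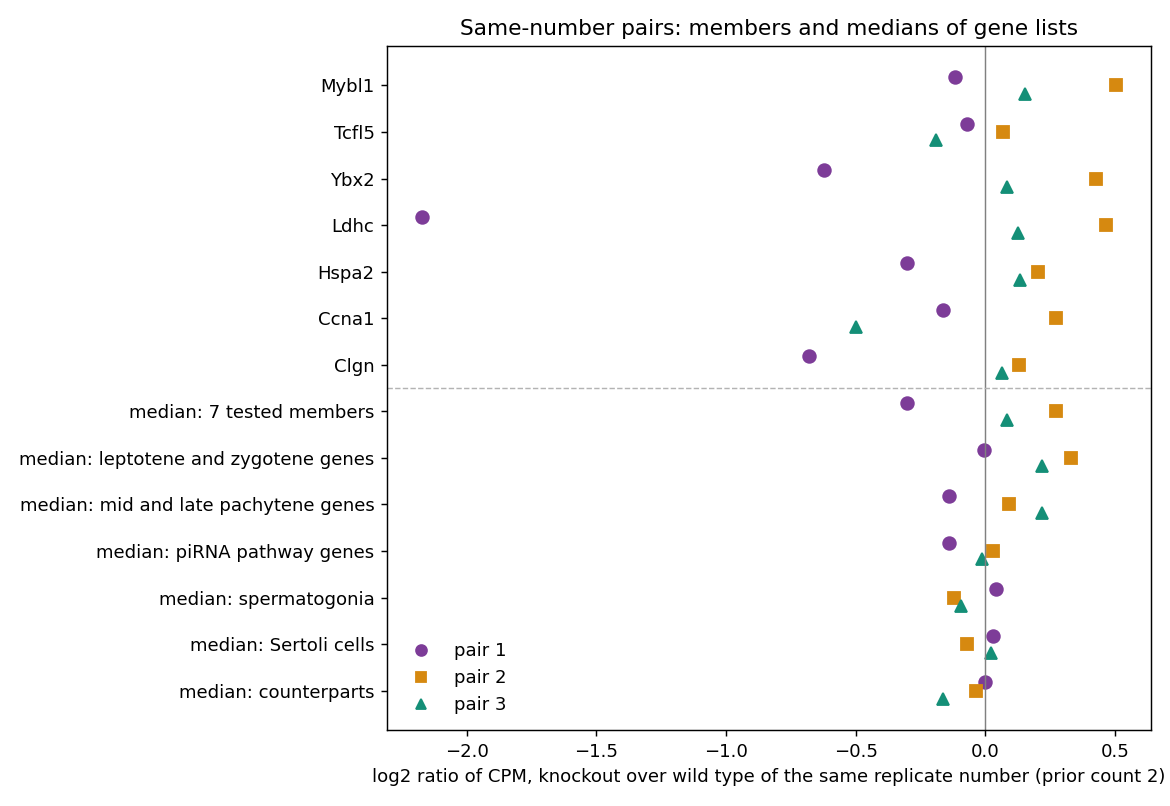
Log2 ratio of knockout over wild type in CPM for each tested gene in the 3 pairs of libraries that share a replicate number, above the medians of these and of 6 other gene lists, with the line at 0 marking equal levels. All 7 points of pair 1 lie below 0 and all 7 of pair 2 lie above it, and Ldhc in pair 1 is the lowest at -2.17.

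The spread between libraries was wide for most of these genes. The range is the highest minus the lowest of the 6 libraries in log2 CPM with a prior count of 2, which narrows it for genes with few counts. It was 3.33 for Ldhc, which 0.172% of tested genes exceeded, and without the prior count the highest Ldhc level was 11.3 times the lowest. The range was 1.74 for Ybx2 and 1.41 for Clgn, which 1.83% and 3.89% of tested genes exceeded. It was 1.07 for Hspa2, 0.88 for Mybl1, 0.81 for Ccna1 and 0.29 for Tcfl5, the last being exceeded by 61.1% of tested genes. The median range of the 7 was 1.07, against 0.36 over all tested genes. All 3 knockout libraries lay within the wild-type range for 6 of 7 genes, against 25.2% of tested genes, and the genotypes overlapped for all 7. Over all tested genes 6.59% did not overlap (3.09% higher and 3.5% lower in knockout).

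A single order of libraries recurred. Wild-type replicate 1 was above the 3 knockout libraries, which were above wild-type replicate 3 and then wild-type replicate 2, for 5 of the 7 genes (Mybl1, Ybx2, Ldhc, Hspa2 and Clgn), against 2.12% of tested genes. Wild-type replicate 1 was highest and wild-type replicate 2 lowest for 6 of the 7, Tcfl5 included, against 5.57% of tested genes. These orders were chosen after the values were seen, so they are descriptions.

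Differences between replicate numbers, with genotype held, were tested across all genes in edgeR. Of the 7 genes 1 passed, Hspa2 (adjusted p = 0.0432), where 8.8% of all tested genes passed. Hspa2 was higher in the number 1 libraries than in the number 2 libraries by 0.83 ± 0.13 on the log2 scale (edgeR adjusted p = 0.0375, 3.63% of genes called in this direction), and than in the number 3 libraries by 0.71 ± 0.13 (edgeR adjusted p = 0.0563). None of the 7 was called for number 1 over number 3, where 2.47% of genes were called higher, or between numbers 2 and 3, where 1.52% were called. The adjusted p was 0.132 for Mybl1, 0.135 for Clgn, 0.156 for Tcfl5, 0.182 for Ybx2, 0.238 for Ldhc and 0.601 for Ccna1 in the same edgeR test. Limma voom called 4 of the 7 (Mybl1, Clgn, Ybx2 and Hspa2), where 6.35% of tested genes were called. An edgeR fit without pair 1 called none of the 7, where 1.71% of tested genes were called. The labels do not say what a number marks.

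Other germ cell genes were set beside these levels. The list of leptotene and zygotene genes, which act as chromosomes begin to break, pair and join, was high in all libraries, with sums of 3075, 2296 and 2623 CPM in knockout replicates 1, 2 and 3 and 3088, 1888 and 2304 CPM in wild-type replicates 1, 2 and 3. The 10 onset genes summed to 314.5, 232.6 and 236.7 CPM in the knockout libraries and 396.6, 196.2 and 228.9 CPM in the wild-type libraries. The mid and late pachytene list, of which 15 of 16 symbols were found, summed to 104.4 to 118.7 CPM in the knockout libraries and 100.9 to 139.1 CPM in the wild-type libraries. Of those 15 genes 10 were highest in wild-type replicate 1. Among the 9 that passed the count filter 6 were, against 16.5% of all tested genes. Tbpl1 alone gave 58.5 to 61.1 CPM of the sum in the knockout libraries and 54.8 to 61.7 CPM in the wild-type libraries. Hist1h1t, Acr and Adam3 were among the genes of this list that did not pass the count filter. The sums differ in their genes and do not place a stage. In edgeR's test of replicate numbers 15 of the 20 leptotene and zygotene genes (75.0%) and 2 of the 9 tested mid and late pachytene genes passed. The share over all tested genes was 8.8%. No gene of either list passed between genotypes. Of the 20, 16 passed as higher in number 1 than in number 2 libraries, against 3.63% of all tested genes.

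**Figure D3:**
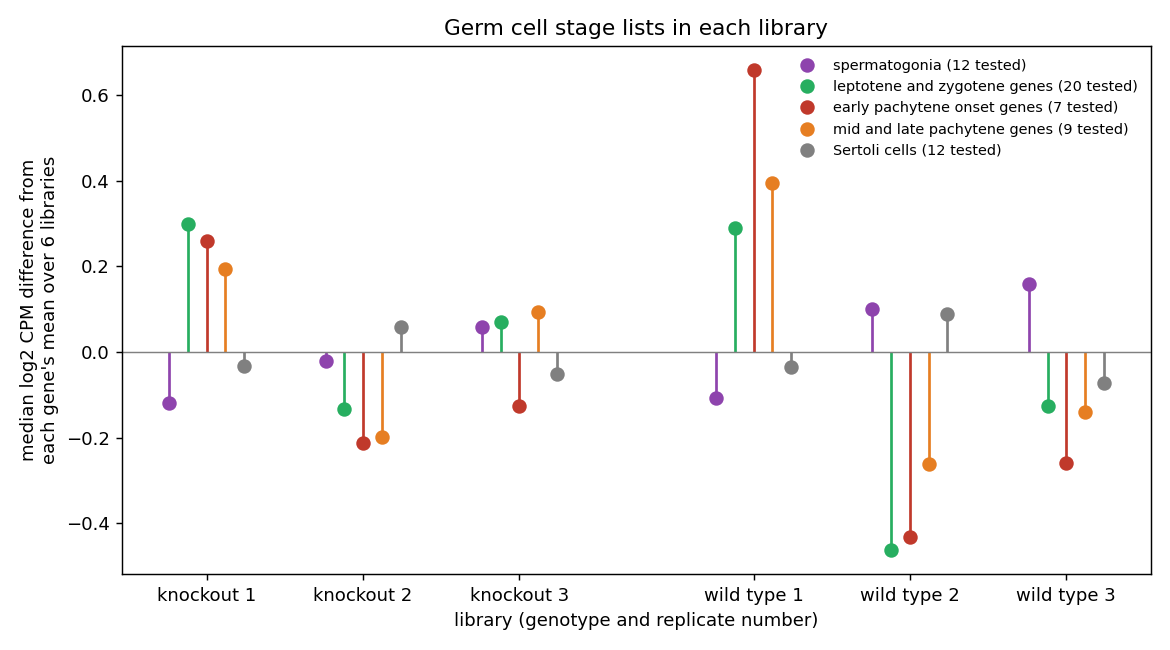
Median deviation of the tested genes of each list from the gene's own mean over 6 libraries, on the log2 CPM scale, by library with the knockout libraries left of the wild-type ones. For the onset genes wild-type replicate 1 is the highest at 0.66 and wild-type replicate 2 the lowest at -0.43. The medians of the spermatogonial and Sertoli cell lists stay between -0.12 and 0.16.

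The early list and the onset genes had different medians in the number 1 libraries; this difference was not tested. Knockout replicate 1 and wild-type replicate 1 had nearly the same median deviation for the leptotene and zygotene genes, 0.30 and 0.29 on the log2 scale, but 0.26 and 0.66 for the onset genes. Adam2, a sperm surface protein gene of later spermatocytes, was also highest in wild-type replicate 1, with 32, 7 and 17 counts in the knockout libraries and 124, 2 and 4 counts in the wild-type libraries. Acr, which encodes the acrosomal protease acrosin, had 1 count in each knockout library, against 13, 1 and 4 counts in the wild-type libraries. Other genes of the mid and late pachytene list had another highest library. It was knockout replicate 1 for Hist1h1t, knockout replicate 2 for Adam3 and knockout replicate 3 for Zpbp2. For Nme5 it was wild-type replicate 3 and for Cdc25c wild-type replicate 2. Hist1h1t and Adam3 had at most 8 counts per library. Piwil1, the piRNA-binding protein gene that A-MYB turns on, had 8.52, 7.92 and 7.93 CPM in the knockout libraries, against 20.9, 8.58 and 8.47 CPM in the wild-type libraries. Of the 15 piRNA pathway genes 11 were highest in wild-type replicate 1, against 16.5% of all tested genes. The test of replicate numbers in edgeR was passed by 4 of the 15, against 8.8% of all tested genes.

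Markers of other cells were set beside this pattern over whole lists. The 12 spermatogonial genes summed to 638.6 CPM in knockout replicate 1 and 643.3 CPM in wild-type replicate 1, against 671.1 to 724.2 CPM in the other 4 libraries. The 12 Sertoli cell genes summed to 5680 to 6530 CPM, with knockout replicate 1 at 6197 CPM and wild-type replicate 1 at 6131 CPM. Leydig cell genes were less even, at 551.2, 977.7 and 440.4 CPM in the knockout libraries and 534.6, 618.7 and 587.9 CPM in the wild-type libraries. Sums over the 6 libraries were 106.9 to 158.5 CPM for macrophage, 118.5 to 160.1 CPM for endothelial and 1028 to 1168 CPM for peritubular myoid genes. The test of replicate numbers in edgeR was passed by 4 of the 12 spermatogonial and 4 of the 12 Sertoli cell genes (33.3% each). Of all tested genes 8.8% passed it. It was also passed by 2 of 8 Leydig cell, 2 of 6 endothelial, 1 of 6 peritubular myoid and 0 of 7 macrophage genes. The part of cell composition in the spread of the onset genes was not tested. Total counts were 21972002 in knockout replicate 1 and 21945226 in wild-type replicate 1, inside the range of the other libraries.

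The counterparts of these genes, relatives within their gene families, varied less between libraries. None of 14 counterparts passed the test between genotypes in edgeR, with none at an unadjusted p under 0.05, and none passed the test of replicate numbers. On the same measure their median range over the 6 libraries was 0.28, against 1.07 for the 7 onset genes. Myb had the widest range of the 14, at 1.05, followed by Pou5f1 at 0.89 and Hspa1l at 0.78. A wide range was not particular to the onset genes. The median was 1.13 for the 9 tested mid and late pachytene genes, 1.33 for the 8 Leydig cell genes and 4.55 for the 5 tested epididymis and rete genes. In the other lists it lay between 0.31 (peritubular myoid cells) and 0.79 (leptotene and zygotene genes). Levels per length were compared as CPM divided by the summed exon length in kilobases (RPKM). Ldhb, the heart-type subunit, had a level of 267 ± 5.90 RPKM in knockout and 255 ± 8.55 RPKM in wild type, and the level of Ldhc was 0.37%, 0.221% and 0.228% of the summed RPKM of Ldha, Ldhb and Ldhc in knockout replicates 1, 2 and 3, against 1.85%, 0.157% and 0.212% in wild-type replicates 1, 2 and 3. Pgk1 and Ldha have near-identical copies elsewhere in the genome, so their own levels are uncertain.

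**Figure D4:**
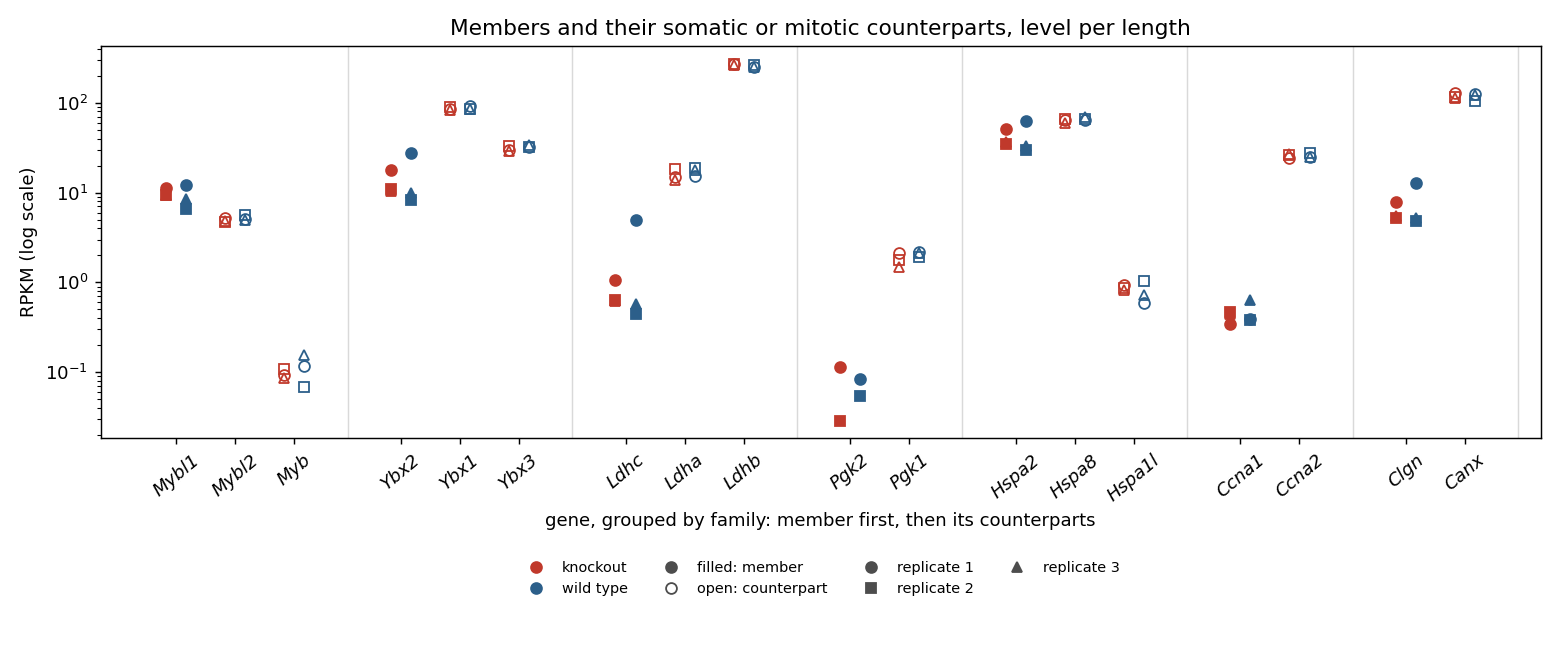
Level in RPKM on a log axis of onset genes and their counterparts in each library, knockout points left of wild-type points, filled for onset genes and open for counterparts. Ldhc, Ybx2 and Clgn have wild-type replicate 1 above the rest, Ldhb, Canx and Hspa8 stay within a narrow band, and the Pgk2 libraries at 0 counts (replicate 3 of both genotypes) are left off the log axis.

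Hspa2 had 40.6 ± 9.08 RPKM in knockout and 42.0 ± 18.2 RPKM in wild type, and the constitutive chaperone Hspa8 had 63.6 ± 3.47 RPKM in knockout and 66.5 ± 2.41 RPKM in wild type, although reads shared within this family may have been lost. The share of Hspa2 in the 2 genes was 44.3%, 34.0% and 37.9% in the knockout libraries and 49.5%, 30.9% and 32.6% in the wild-type libraries. Mybl1 made up 65.7% to 68.0% of the summed RPKM of the MYB family (Mybl1, Mybl2 and Myb) in knockout and 53.3% to 69.9% in wild type, so it was the most abundant of the family in all libraries. Ybx2 made up 8.26% to 13.4% of the Y-box genes in knockout and 6.48% to 18.1% in wild type, and Clgn 4.34% to 5.79% of Clgn and Canx in knockout and 4.10% to 9.19% in wild type. By mean RPKM in either genotype the order was Hspa2, Tcfl5, Ybx2, Mybl1, Clgn, Ldhc and Ccna1. Pou5f2, Pgk2 and Spata16 lay below 0.12 RPKM in both. In wild type Tcfl5 and Ybx2 (17.6 ± 1.80 and 15.2 ± 10.7 RPKM), Ybx2 and Mybl1 (9.05 ± 2.83 RPKM), Mybl1 and Clgn (7.57 ± 4.48 RPKM), and Ldhc and Ccna1 (2.01 ± 2.60 and 0.474 ± 0.148 RPKM) were neighbours that differed by less than the larger SD. In knockout this held for Tcfl5 and Ybx2 (16.8 ± 1.16 and 13.1 ± 4.13 RPKM) and for Ybx2 and Mybl1 (9.97 ± 1.04 RPKM).

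The genes most like the group were sought by correlation of log2 CPM with the mean standardised level of the 7 tested genes over the 6 libraries. That mean stood at 0.39, -0.29 and -0.35 in the knockout libraries and 1.28, -0.99 and -0.04 in the wild-type libraries. The closest were Agbl2, which encodes a tubulin carboxypeptidase (Pearson r = 0.998 over 6 libraries), Gm11837 (0.996), 0610009L18Rik (0.993), 2310061I04Rik (0.988) and Ssmem1 (0.987). Agbl2 had 126, 92 and 93 counts in the knockout libraries and 173, 72 and 96 counts in the wild-type libraries. With 6 libraries high values are common, since 371 other tested genes (2.06%) had r above 0.9, so the names are a description and no test was made.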

How the data were processed

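RNA-seq of whole testes at 12 days post-partum was used from 3 Ankrd31 knockout and 3 wild-type mice. Raw, unnormalized read counts per gene were deposited by the authors as 1 table, and per the labels' protocols the library kit keeps strand. GSNAP 2018-03-11, featureCounts 1.6.0, bcl2fastq 2.19.1 and the build mm10 were used per the submitters' processing notes. The sources used here do not give the strand setting, the annotation release or how reads with several matches were handled. Of 49763 rows 92 were spike-in sequences (1 count) and were left out, and 49412 of 49671 gene identifiers matched GENCODE M21, which gave the symbols (0.0193% of counts did not).

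Genotypes were compared with edgeR 4.0.16 in R 4.3.3, by a two-sided robust quasi-likelihood F test after filterByExpr and TMM scaling, with genotype as the only term. Benjamini-Hochberg adjustment ran over 18040 genes, with a threshold of 0.05. A positive log2 fold change means higher in knockout, and its error is the SE. A second test asked whether the replicate numbers differ with genotype held. Log2 CPM used a prior count of 2. Same-numbered libraries deviated together (correlations of 0.425, 0.258 and 0.284, each above 0.1), so the numbers were taken to pair the libraries. The sample titles also carry running numbers that adjoin for same-numbered libraries. These were not used, and the labels do not say what they mark. A replicate block was an alternative, as were DESeq2 1.42.0, limma voom 3.58.1, other normalizations and filters and fits without each library or pair. No library duplicated another of its genotype (chi-square per degree of freedom 7.94 to 14.13 between replicates). Libraries of different genotypes were not compared in this way. P-values cover the spread between these mice, and counting limits cover counting error only. The pipeline was tested on simulated data that gave every gene the same variation beyond counting error. In the real data this variation was estimated at 8.5% for Tcfl5 and up to 80.8% for Ldhc among the tested members. The simulation therefore does not give the power for these genes.

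The genes and lists were chosen with earlier results of these data known. Named genes are the 10 members, their counterparts, 3 genes per list by smallest p and the 5 most similar genes. The text gives a selection, and somatic lists appear as sums, counts and median ranges. Crisp1, Acr, Hist1h1t, Adam3, Zpbp2, Nme5 and Tbpl1 were named after their values were seen.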

Additional observations from a re-analysis of the deposited data

How the results depend on the processing

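No setting called a member between genotypes: the 7 tested genes gave 110 values over the alternatives, with adjusted p-values from edgeR, DESeq2 or voom between 0.193 and 1, and 95 kept their sign. Whole-table genotype calls were 0 in the primary fit, 8 with the replicate block, 1 without a count filter, 2 in DESeq2, and with the block 63 without pair 1, 57 without pair 2 and 0 without pair 3; the block changed no other call of a member. Over fits that left out 1 library, log2 fold changes spanned -0.046 (without wild-type replicate 2) to 0.41 for Mybl1, and -0.511 to 0.54 for Ybx2, -1.846 to 0.62 for Ldhc, -0.246 to 0.37 for Hspa2, -0.532 to 0.32 for Clgn, -0.54 to 0.037 for Cox6b2 and -1.842 to 2.58 for Adam2, with each upper end without wild-type replicate 1. Hspa2 was also 0.07 without knockout replicate 2, 0.03 without knockout replicate 3, 0.003 with the block and 0.012 in voom. Ccna1 spanned -0.297 to 0.12, its upper end without wild-type replicate 3. With the block without pair 1, Ybx2 was 0.26, Ldhc 0.32, Hspa2 0.17 and Clgn 0.10, and without pair 3 Ccna1 was 0.075. Adam2 was 0.54 in voom.

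The median of the 7 members was -0.064 at 1 CPM in 3 libraries (which removes Ldhc and Ccna1) and in voom, -0.30 to 0.37 without 1 library, and 0.17, -0.31 and -0.058 with the block without pairs 1, 2 and 3. Replicate number calls were 1587 of all genes, 3265 without a filter, 309 without pair 1 and 473 without pair 3; members called were 1, but 4 without a filter, 4 in voom, 0 without pair 1 and 2 without pair 2. Apart from the filter that removes members, the cause was not tested. Ldhc and Ccna1 rest on 14 to 175 counts per library. These medians and the count of positive values were added after the data were seen.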

Other observations

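Most genes of the spermatid list had few counts in all 6 libraries. Of 16 genes 4 passed the count filter, and the 16 summed to 6.49 to 6.69 CPM in the knockout libraries and 6.25 to 7.56 CPM in the wild-type libraries. Prm1, Prm2 and Tnp2, which encode the basic proteins that pack sperm DNA, and the sperm calcium channel gene Catsper1 had 0 counts in all libraries, which at 3 counts allows up to 0.142 CPM. Spaca1, an acrosome membrane protein gene, had 3.37, 3.34 and 2.84 CPM in the knockout libraries and 3.08, 2.46 and 2.60 CPM in the wild-type libraries. Izumo1, a sperm-egg fusion protein gene, had 1.32, 1.47 and 1.35 CPM in the knockout libraries and 1.68, 1.67 and 1.56 CPM in the wild-type libraries, and the groups did not overlap (3.5% of tested genes were lower in knockout in this way). None of the 4 passed in edgeR or had an unadjusted p under 0.05, and no gene of the whole table passed, with 374 at an unadjusted p under 0.05.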
